A study of Mus musculus with 6 samples.

Results

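Interferon-inducible GTPases of the IRG and GBP families were followed across the cell types of the mouse spleen and between 2 diets. The 10 members were chosen by name from the 32285 genes counted: the regulatory IRGs Irgm1, Irgm2 and Igtp, the effector IRGs Iigp1, Ifi47 and Tgtp1, and the guanylate-binding proteins Gbp2, Gbp3, Gbp6 and Gbp7. The 6 libraries came from spleens of wild-type C57BL/6 mice that were 6 weeks old when they were started on their diet and stayed on it for 7 weeks. The 3 ND libraries came from mice on ND, and the 3 MCDHFD libraries from mice on MCDHFD, a diet used to model metabolic dysfunction-associated steatohepatitis (MASH). Some sample titles shorten the second diet to MCD, and the labels give neither the diets' composition nor whether each library is 1 animal or a pool. No group carries a genetic change or another agent per the labels, and p-values measure the spread between libraries, which may be technical in part.

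IRG and GBP proteins are GTPases that cells make in large amounts after interferon gamma, and to a lesser degree after type I interferon. They gather on the membranes of vacuoles that hold intracellular parasites and bacteria and break them open, and the autophagy machinery helps to place them. Regulatory IRGs (the GMS group, named for a motif of their nucleotide-binding site) sit on the cell's own membranes and hold the effector IRGs (the GKS group) in their inactive state. GBPs join them on pathogen vacuoles and help to start inflammasome signalling. The promoters of such genes often carry the gamma-activated site (GAS), the element of the interferon gamma signal, and the interferon-stimulated response element (ISRE), to which complexes with IRF9 bind.

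Promoter sequence is shown to describe the members. They were chosen as interferon-inducible genes, so the counts of elements below say nothing on the diet change, whose cause was not tested. RefSeq promoter windows (GRCm38.p6, 250 bases before to 50 after each annotated start) were at hand for 8 of the 10 members, in 9 windows. They were searched on both strands for the ISRE core GAAANNGAAA and the GAS core TTCNNNGAA. An ISRE core lay in a window of 7 of the 8 members, against 3.993% of all genes with windows of this length, and a GAS core in 4 of the 8, against 9.554% of genes. Both were present for Gbp7, Tgtp1, Igtp and Irgm2, and 0.4536% of all 32851 windows hold both. Ifi47 had neither, which says only that these letters are not in its window. The stretches that hold the matches are given 5′ to 3′ on the gene's strand, with the matched letters in capitals. All of them lie upstream of the annotated start.
Igtp, chr11:58199487-58199546, plus strand: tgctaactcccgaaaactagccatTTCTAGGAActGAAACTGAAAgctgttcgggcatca
Irgm2, chr11:58214878-58214937, plus strand: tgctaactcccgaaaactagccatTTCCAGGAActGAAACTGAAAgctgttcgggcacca
Tgtp1, chr11:48992299-48992358, minus strand: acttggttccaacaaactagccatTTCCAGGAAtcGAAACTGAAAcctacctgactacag
Irgm1, chr11:48871421-48871480, minus strand: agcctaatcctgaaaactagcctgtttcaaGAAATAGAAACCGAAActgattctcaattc
Gbp7, chr3:142530215-142530307, plus strand: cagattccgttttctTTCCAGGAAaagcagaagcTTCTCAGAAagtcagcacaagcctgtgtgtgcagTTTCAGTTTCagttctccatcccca
Gbp3, chr3:142559970-142560029, plus strand: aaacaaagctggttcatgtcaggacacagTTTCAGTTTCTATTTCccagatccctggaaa
Gbp2, chr3:142620569-142620628, plus strand: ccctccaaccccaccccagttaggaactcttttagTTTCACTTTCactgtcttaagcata
The Igtp and Irgm2 stretches were the same at 58 of 60 positions, and the Tgtp1 stretch matched that of Irgm2 at 39 of 60. In these 3 genes the GAS core was followed within a few bases by the ISRE core. The Gbp7 window held 2 GAS cores ahead of its ISRE core, and Irgm1 and Gbp3 each held a pair of overlapping ISRE cores and no GAS core. A match describes the sequence and does not show that a factor bound there.

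The members lie in clusters (mm10, GENCODE vM21). On chromosome 11 are Irgm1 (ENSMUSG00000046879, chr11:48861968-48871683), Tgtp1 (ENSMUSG00000078922, chr11:48985327-48994172), Ifi47 (ENSMUSG00000078920, chr11:49076587-49096974), Igtp (ENSMUSG00000078853, chr11:58199556-58207591) and Irgm2 (ENSMUSG00000069874, chr11:58199618-58222782). On chromosome 3 are Gbp7 (ENSMUSG00000040253, chr3:142530342-142550149), Gbp3 (ENSMUSG00000028268, chr3:142560026-142573209) and Gbp2 (ENSMUSG00000028270, chr3:142620602-142638008). Gbp6 (ENSMUSG00000104713, chr5:105270702-105293698) lies on chromosome 5, and Iigp1 (ENSMUSG00000054072) apart from the others on chromosome 18. Igtp and Irgm2 overlap on the same strand, and Tgtp1 and Gbp6 have close copies (Tgtp2 and Gbp10), so the split of molecules within these pairs is uncertain.

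Droplet-based 3′ sequencing gave UMI counts (unique molecules per gene and cell). Barcodes with at least 1000 UMIs and at most 10% mitochondrial UMIs were taken as cells, 31542 in all and 3278 to 6625 per library, with median depths of 4462 to 6186 UMIs. ND replicate 2 and MCDHFD replicate 3 stood apart: their barcode lists had been filtered before deposit, and their median mitochondrial shares were 0.569% and 1.68% against 3.73% to 3.96% in the other 4. The form of the list (filtered or not) is therefore a term of every diet test, and calls from the fit without it are given beside the members' counts. Libraries shared 0 to 18 cell barcodes per pair. Cells were gated on a few defining genes: Cd79a for B cells (at least 2 UMIs), Cd3e with Cd8b1 or Cd4 for T cells, Ncr1 without Cd3e for NK cells, Csf1r for monocytes and macrophages, Csf3r with S100a8 (at least 5) for neutrophils, Flt3 with H2-Aa (at least 3) for dendritic cells and Klf1 for erythroid cells. No gate held 12.9% of the cells, and 8.67% passed more than 1.

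Lists of markers were read in each gate as a check. In the NK, neutrophil and erythroid gates the list of the gate's own cell type was the highest in every library, and so it was in the CD8 and CD4 T cell gates once cells that passed another gate were left out. The B cell gate held its own markers at 3848 to 6394 CPM beside 5641 to 9386 CPM of a plasma cell list that includes Ighm, which B cells also express. In the dendritic gate 67.5% of its 879 cells passed another gate. It held 1667 to 2539 CPM of B cell markers against 644 to 892 CPM of dendritic markers (CPM, a gene's UMIs scaled to the total UMIs of the gate's cells in that library). Among its cells that passed no other gate, dendritic markers were at 1118 to 1886 CPM and B cell markers at 58.1 to 427 CPM. The monocyte and macrophage gate held neutrophil markers at 6193 to 21049 CPM, and 43.1% of its 3055 cells passed another gate. In its cells that passed no other gate, neutrophil markers were at 82.3 to 3452 CPM in ND and 74.9 to 1097 CPM in MCDHFD, beside 10806 to 15326 CPM of monocyte and macrophage markers.

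T cells, Csf1r cells and NK cells held the most GTPase RNA on average. The summed level of the 10 members, as a mean over 6 libraries, was 317 ± 67.8 CPM (SD) in CD4 T cells, 304 ± 53.1 in CD8 T cells, 258 ± 109 in monocytes and macrophages and 248 ± 49.4 in NK cells. It was 148 ± 27.0 CPM in the dendritic gate, 145 ± 38.4 in neutrophils, 138 ± 34.5 in B cells and 117 ± 57.3 in erythroid cells. The step from NK cells to the dendritic gate held in 6 of 6 libraries (exact sign-flip test, p = 0.03125, the smallest that 6 libraries can give), and no other step between neighbours of this order did. In the 4 libraries with unfiltered lists, barcodes of 10 to 100 UMIs, which mostly hold free RNA, had a summed level of 150 to 205 CPM, as high as B cells and neutrophils. Those values rest on 506 and 783 UMIs in ND replicates 1 and 3, and on 74 and 59 in MCDHFD replicates 1 and 2. The means of the lower 4 gates do not lie above that range. All cells of the same libraries together held 174 to 220 CPM. The share of free RNA in each gate was not estimated, so how far these levels come from it is not known.

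**Figure D1:**
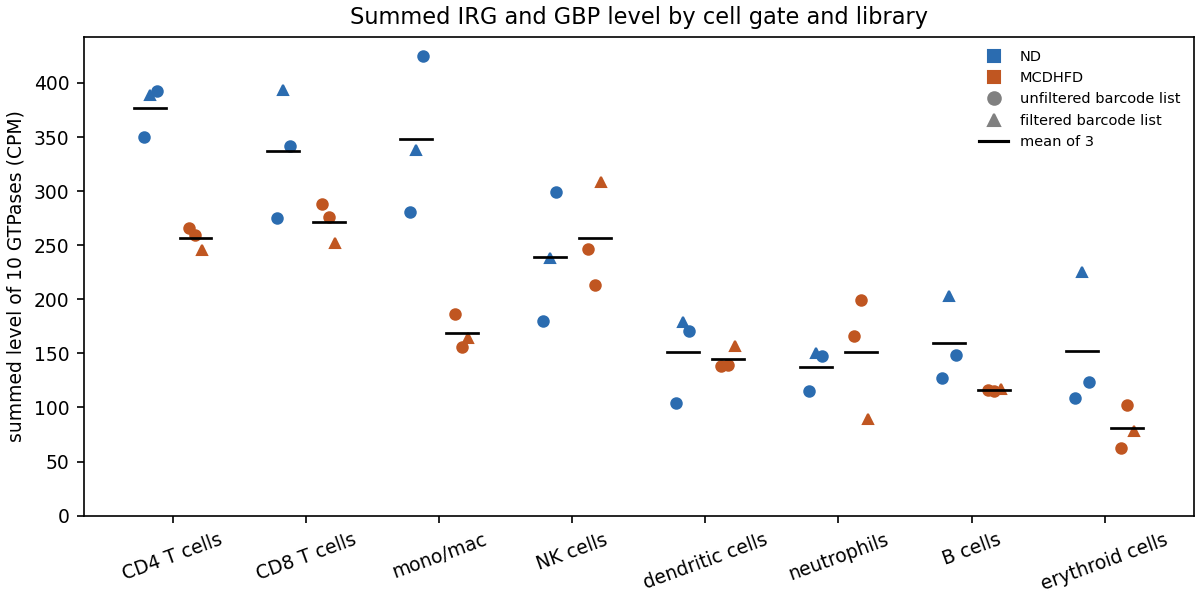
Summed level of the 10 GTPases in CPM (vertical axis, linear) in each of 8 cell gates, with 1 point per library, blue for ND and orange for MCDHFD, circles for unfiltered and triangles for filtered barcode lists; black lines are means of 3 libraries. The MCDHFD points lie below all ND points in CD4 T cells, monocytes and macrophages, B cells and erythroid cells, and the 2 diets overlap in the other 4 gates.

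The order of cell types by mean level varied between the members, though most steps of it did not hold in every library. Among regulatory IRGs, Igtp (Irgm3 in another naming) averaged 53.3 ± 16.1 CPM in CD4 T cells and 49.6 ± 11.7 in CD8 T cells, against 23.4 ± 5.83 in NK cells, and CD8 T cells were above NK cells in 6 of 6 libraries. Irgm1, which guards the cell's own membranes from the effectors, ran from 19.5 ± 6.36 CPM in neutrophils to 40.8 ± 4.95 in the dendritic gate, with no step between neighbours held in all 6 libraries. Free RNA held 29.9 to 41.6 CPM of Irgm1, the highest value from 15 UMIs, so no gate's mean level lies above that range. For Igtp free RNA held up to 36.1 CPM (from 13 UMIs), more than the mean of NK cells and less than those of T cells. Irgm2 ran from 3.04 ± 2.86 CPM in erythroid cells to 29.1 ± 6.95 in CD4 T cells, and the only step held in 6 of 6 libraries was that from the dendritic gate to erythroid cells.

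The effector IRGs differed widely between gates. Iigp1 (Irga6) averaged 34.5 ± 20.1 CPM in CD4 T cells, 21.9 ± 10.04 in CD8 T cells and 16.6 ± 17.8 in monocytes and macrophages, and CD4 were above CD8 T cells in 6 of 6 libraries. It averaged 1.72 ± 0.483 CPM in B cells and 0.835 ± 0.753 in neutrophils. Free RNA held 0 to 9.33 CPM of Iigp1, with 3 and 0 UMIs behind the values of MCDHFD replicates 1 and 2. The means of B cells and neutrophils lie within that range. The levels of CD4 and CD8 T cells lay above it in all 4 libraries where both were measured. Ifi47 (Irgd) was within 45.1 to 63.2 CPM on average in CD8 T cells, monocytes and macrophages, CD4 T cells and NK cells, and lower on average in the other 4 gates. Tgtp1 (Irgb6) was lowest in neutrophils at 0.406 ± 0.553 CPM and highest in CD8 T cells at 10.6 ± 6.63.

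Among the GBPs, Gbp7 averaged 73.0 ± 17.3 CPM in NK cells, 53.9 ± 13.3 in CD4 T cells and 46.2 ± 12.9 in CD8 T cells. Each of these steps, and the next one down to erythroid cells, held in 6 of 6 libraries. Gbp2 and Gbp3 averaged 34.0 ± 18.8 and 25.0 ± 11.3 CPM in monocytes and macrophages, the highest means over the 6 libraries, but not within each diet. In ND these cells had means of 48.9 CPM for Gbp2 and 34.9 for Gbp3. In MCDHFD their Gbp2 mean of 19.1 CPM was below those of neutrophils (33.8) and CD8 T cells (32.8), and their Gbp3 mean of 15.1 CPM below those of NK cells (22.8) and B cells (17.0). Free RNA held 12.7 to 20.3 CPM of Gbp3. Gbp3 was also higher in B cells (19.0 ± 3.03) than in CD4 T cells (12.0 ± 5.38) in 6 of 6 libraries. Gbp6 was found mostly in CD8 T cells (20.1 ± 6.52 CPM), CD4 T cells (18.7 ± 7.07) and NK cells (12.1 ± 10.6). Over the 10 members, 11 of 70 steps between neighbours held in all 6 libraries, and none passed after adjustment over the 70 (lowest adjusted p = 0.199, exact sign-flip test). Passing was hardly possible, because this test cannot give a p under 0.03125 with 6 libraries. The neighbours were also ordered by the same means that were tested.

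**Figure D2:**
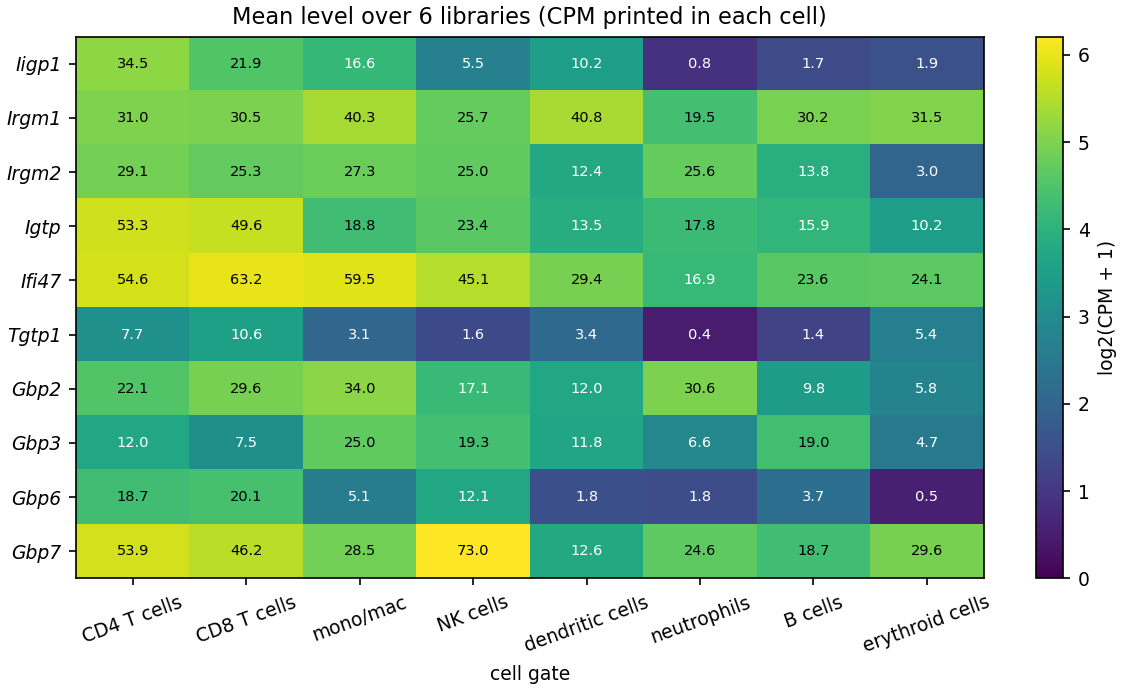
Mean level over 6 libraries of each GTPase (rows) in each cell gate (columns), coloured on a log2(CPM + 1) scale with the mean CPM printed in each cell. Gbp7 is highest in NK cells at 73.0 CPM, Iigp1 in CD4 T cells at 34.5 CPM, and Gbp2 and Gbp3 in monocytes and macrophages at 34.0 and 25.0 CPM, means that pool the 2 diets.

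Monocytes and macrophages of MCDHFD mice held less GTPase RNA than those of ND mice. The summed level was 280, 338 and 425 CPM in ND replicates 1 to 3 and 187, 156 and 164 CPM in MCDHFD replicates 1 to 3. Free RNA of MCDHFD replicates 1 and 2 held 205 and 150 CPM, from only 74 and 59 UMIs, near the level of this gate there. ND replicates 1 and 3 lay above their free RNA at 156 and 187 CPM. The share of free RNA in the gate was not estimated, so its part in these levels is not known. In edgeR's quasi-likelihood test with diet and list form, 4 of the 10 members fell (adjusted p under 0.05 over all genes tested) and none rose, against 0.645% of all 11158 genes lower. The 10 had a median log2 change of -1.16, against -0.01 over all genes tested, and all 10 were negative. Libraries of the 2 diets did not overlap for 8 of the 10, against 6.17% of all genes not overlapping in this direction.

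Iigp1, the effector that coats parasite vacuoles, had the largest change of the 10. It was at 22.0, 18.5 and 48.8 CPM in ND and 3.24, 4.76 and 2.48 CPM in MCDHFD, from 349 UMIs in all. Every ND library was higher than every MCDHFD library, and the gene fell by 3.10 on the log2 scale (SE 0.37, adjusted p = 0.0192). Gbp3 was at 31.7, 33.7 and 39.4 CPM in ND and 17.8, 14.6 and 12.8 CPM in MCDHFD, and fell by 1.23 (SE 0.16, adjusted p = 0.0212). Gbp2, a GBP with a lipid anchor, was at 34.2, 49.0 and 63.6 CPM in ND and 19.5, 18.9 and 18.8 CPM in MCDHFD, and fell by 1.38 (SE 0.23, adjusted p = 0.0431). Here the 3 MCDHFD libraries were nearly alike and the ND libraries spread. Ifi47 was at 57.8, 93.3 and 90.7 CPM in ND and 40.1, 29.8 and 45.1 CPM in MCDHFD, and fell by 1.10 (SE 0.19, adjusted p = 0.0490).

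The other 6 members did not pass. Tgtp1 (log2 change -2.24, adjusted p = 0.0520), Gbp7 (-0.79, 0.0559), Gbp6 (-2.18, 0.0926) and Irgm1 (-0.72, 0.109) did not overlap between diets, while Irgm2 (-0.50, 0.249) and Igtp (-0.62, 0.268) did. By group, 2 of 3 effector IRGs (Iigp1 and Ifi47), 2 of 4 GBPs (Gbp2 and Gbp3) and 0 of 3 regulatory IRGs fell, with median log2 changes of -2.24, -1.30 and -0.62. With diet alone, edgeR called none of the 10 and 0% of all genes lower (8 of the 10 at an unadjusted p under 0.05, against 6.15% of all genes, lowest adjusted p = 0.129). DESeq2 called 7 with list form, against 2.11% of all genes lower, and 5 with diet alone, where 121 genes were called in all. In the 4 libraries with unfiltered lists edgeR called none of the members and 21 genes in all, and among the cells that passed no other gate it called 5 members of 75 genes in all. With ND replicates 1 to 3 left out in turn, 2, 0 and 2 members passed, and with MCDHFD replicates 1 to 3 left out, 0, 1 and 1.

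**Figure D3:**
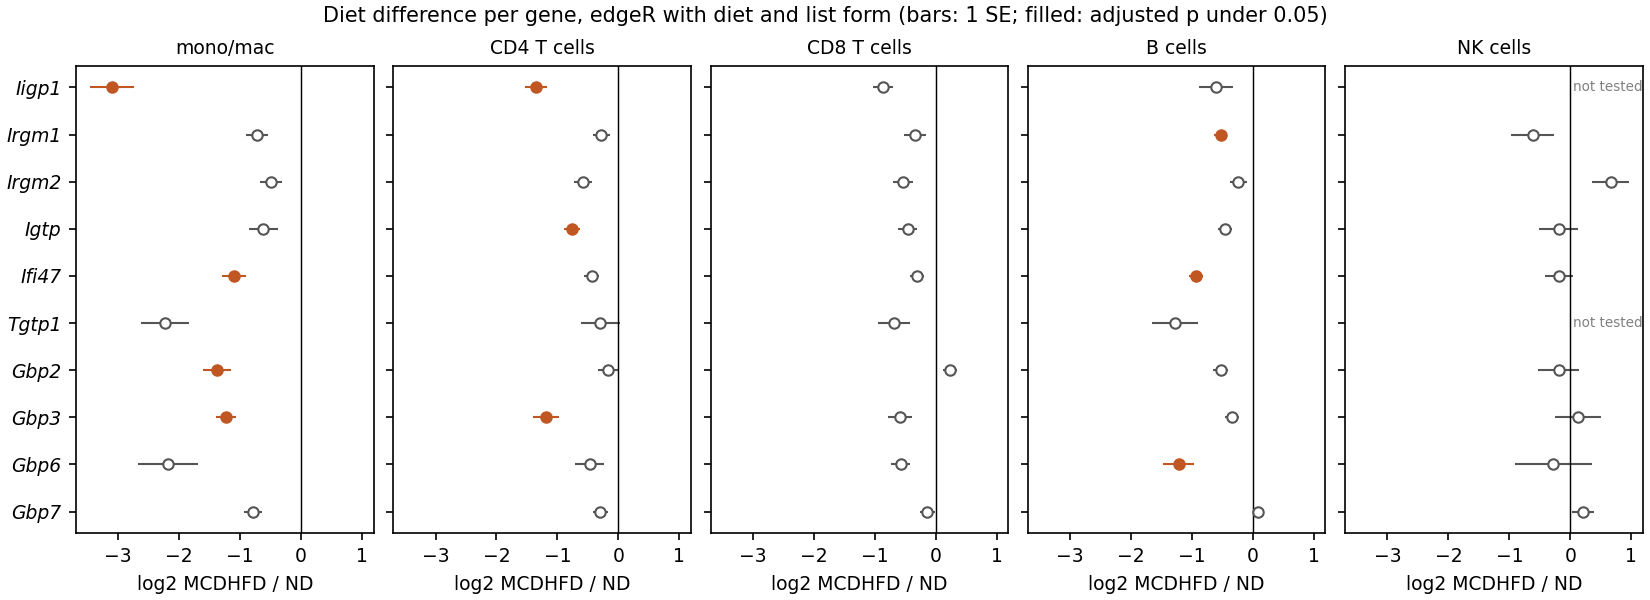
Log2 change of MCDHFD over ND (horizontal axis) for each GTPase (rows) in 5 cell gates, from edgeR with diet and list form; bars are 1 SE and filled points passed an adjusted p of 0.05. All points of the monocyte and macrophage panel lie left of 0, with Iigp1 at -3.10, and the NK cell points lie on both sides of 0.

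The makeup of the gate also differed between diets. Among the cells that passed no other gate, markers of monocytes and macrophages were at 13664 to 15326 CPM in ND and 10806 to 13253 CPM in MCDHFD, and those of dendritic cells at 287 to 418 CPM in ND and 150 to 239 CPM in MCDHFD, both without overlap, while erythroid markers ran from 1390 to 11023 CPM. The part of these in the result was not tested. The Csf1r gate was then split by other markers among its cells that passed no other gate, a split chosen after the data were seen. Cells with at least 2 UMIs of C1qa, C1qb and Vcam1 together, genes of tissue macrophages, made up 38.8%, 38.3% and 32.2% in ND and 36.5%, 24.7% and 72.5% in MCDHFD. Of the rest, cells with at least 2 UMIs of Ly6c2 and Ccr2 (genes of classical monocytes) made up 39.2%, 38.3% and 43.2% in ND and 34.0%, 39.2% and 17.4% in MCDHFD. Cells with at least 2 UMIs of Ace, Treml4 and Nr4a1 (genes of patrolling monocytes) numbered 18 to 146 per library. The 72.5% of MCDHFD replicate 3 shows that the makeup of the gate differed between libraries, so the diets were compared within each subset.

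Iigp1 had its higher levels in the C1q or Vcam1 cells. It was there at 138, 135 and 207 CPM in ND and at 13.0, 41.8 and 8.86 CPM in MCDHFD, and fell by 3.03 (SE 0.35, adjusted p = 0.000444). The call held with each library left out (highest adjusted p = 0.0116), and with diet alone the adjusted p was 0.254. In the Ly6c2 or Ccr2 cells, Iigp1 had 4, 0 and 21 UMIs in ND and 0, 1 and 0 in MCDHFD, under the filter on low counts. In the Ace, Treml4 or Nr4a1 cells it had no UMI in any library, which over their 385 cells allows up to 1.15 CPM (counting error only).

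Both main subsets held less GTPase RNA in MCDHFD. The summed level in C1q or Vcam1 cells was 468, 594 and 697 CPM in ND and 223, 265 and 253 CPM in MCDHFD. In Ly6c2 or Ccr2 cells it was 403, 421 and 585 CPM in ND and 226, 148 and 102 CPM in MCDHFD. In both subsets every ND library was higher than every MCDHFD library. In the C1q or Vcam1 cells, 2 of 8 tested members fell, against 0.933% of all 6858 genes: Iigp1, and Gbp2 by 1.88 (SE 0.39, adjusted p = 0.0185). In the Ly6c2 or Ccr2 cells, 5 of 7 tested members fell, against 1.55% of all 7830 genes. They were Gbp2 (fell by 2.50, SE 0.43), Gbp7 (by 1.89, SE 0.27), Gbp3 (by 1.72, SE 0.27), Ifi47 (by 1.53, SE 0.26) and Irgm1 (by 1.15, SE 0.23), with adjusted p of 0.00498 to 0.0252. With diet alone none passed in either subset (lowest adjusted p 0.254 and 0.0525), where 0.179% of all genes in the Ly6c2 or Ccr2 cells were called lower. With ND replicates 1 to 3 and then MCDHFD replicates 1 to 3 left out in turn, 2, 1, 1, 1, 1 and 1 members passed in the C1q or Vcam1 cells, and 5, 0, 5, 3, 0 and 0 in the Ly6c2 or Ccr2 cells. No member's diet change passed a test of the difference between the 2 subsets (lowest adjusted p = 0.755, Gbp7, edgeR interaction, with 2 of 8 at an unadjusted p under 0.05, and 0.0964% of all genes called). The Ace, Treml4 or Nr4a1 cells overlapped between diets in summed level, at 83.7, 140 and 201 CPM in ND and 87.7, 80.2 and 341 CPM in MCDHFD, and were not tested because MCDHFD replicate 3 held 18 of them.

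**Figure D4:**
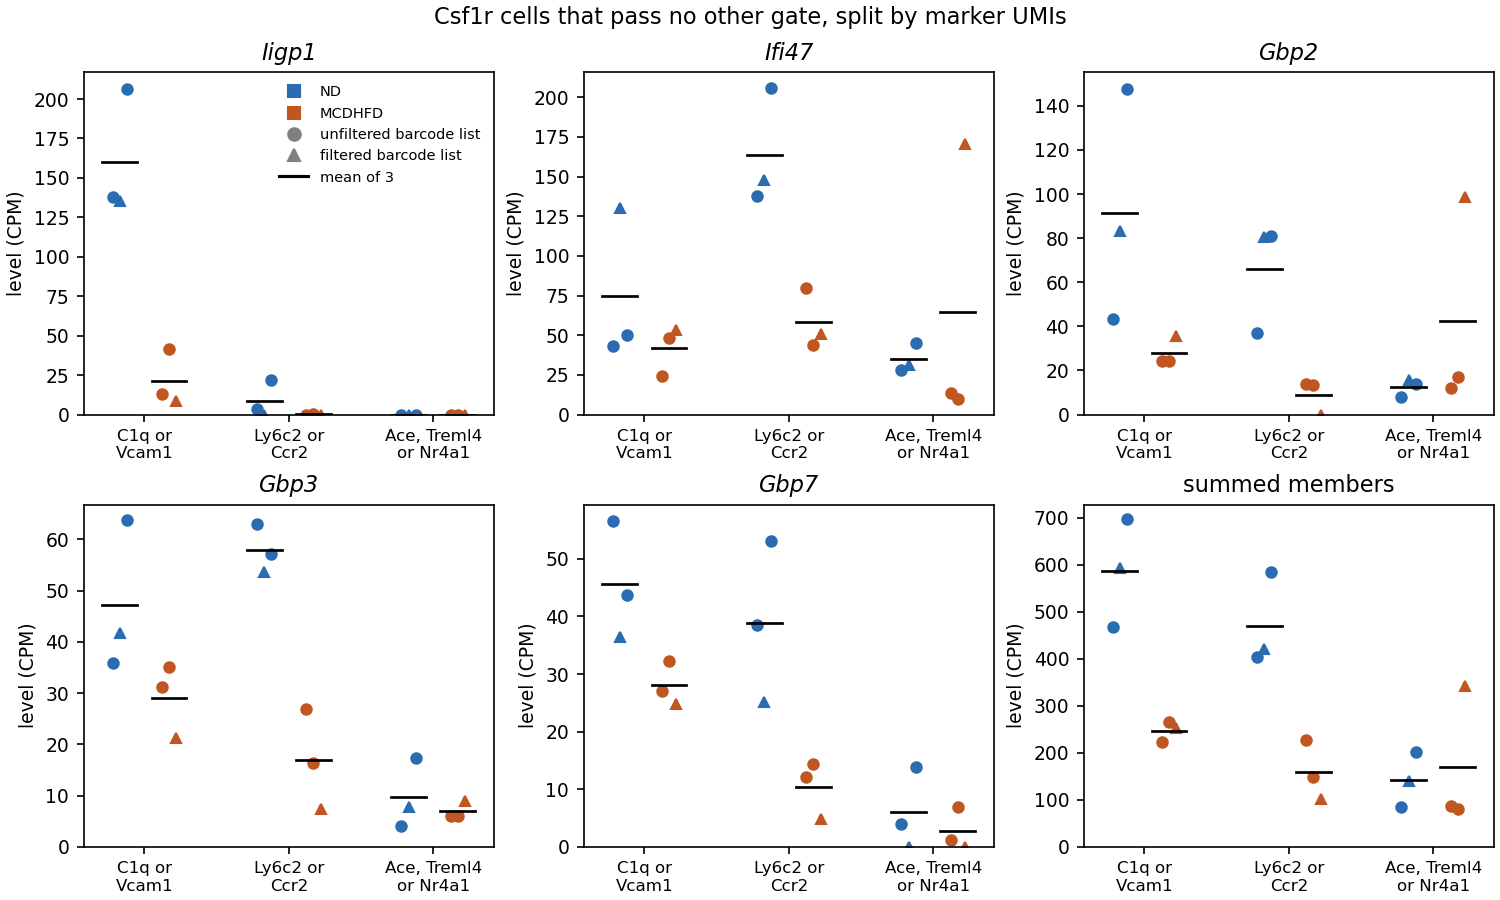
Levels in CPM (vertical axes, linear) of 5 GTPases and of the summed 10 in 3 subsets of the Csf1r gate, with 1 point per library, blue for ND and orange for MCDHFD, triangles for filtered lists and lines for means of 3. Iigp1 stands high in ND C1q or Vcam1 cells (135 to 207 CPM) and low in the other subsets, while the ND points of Ifi47 in Ly6c2 or Ccr2 cells (138 to 206 CPM) lie above its ND points in the other subsets.

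CD4 T cells of MCDHFD mice also held less GTPase RNA. Their summed level was 350, 389 and 393 CPM in ND and 266, 259 and 245 CPM in MCDHFD. Of the 10 members, 3 fell and none rose, against 1.23% of all 10494 genes lower. All 10 changes were negative, with a median of -0.45 against a value near 0 over all genes tested, and 4 members did not overlap between diets, against 5.38% of all genes.

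Iigp1 was at 60.7, 30.5 and 55.6 CPM in ND CD4 T cells and 27.8, 25.8 and 6.94 CPM in MCDHFD, and fell by 1.35 (SE 0.18, adjusted p = 0.00913). MCDHFD replicate 3 was the lowest of all, and ND replicate 2 lay close to the other MCDHFD libraries. Those are the 2 libraries with filtered lists, so Iigp1 was lower in MCDHFD within each form of list. Igtp was at 59.6, 73.4 and 67.6 CPM in ND and 40.8, 32.1 and 46.1 CPM in MCDHFD, and fell by 0.76 (SE 0.13, adjusted p = 0.0259). Gbp3 was at 19.5, 15.3 and 15.3 CPM in ND and 6.73, 8.74 and 6.66 CPM in MCDHFD, and fell by 1.19 (SE 0.22, adjusted p = 0.0308). For Iigp1, Igtp and Gbp3 the groups did not overlap. Markers shared by T cells were also lower in MCDHFD, at 1918 to 2319 CPM against 2416 to 3230 CPM in ND, and their part in the result was not tested. With diet alone edgeR called none of the 10 and 0% of all genes lower (4 of the 10 at an unadjusted p under 0.05, against 4.59% of all genes, lowest adjusted p = 0.497). DESeq2 called 3 with list form, against 1.72% of all genes lower, and 0 without. Without ND replicates 1 to 3 in turn, 1, 3 and 2 members passed, and without MCDHFD replicates 1 to 3, 1, 0 and 3.

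**Figure D5:**
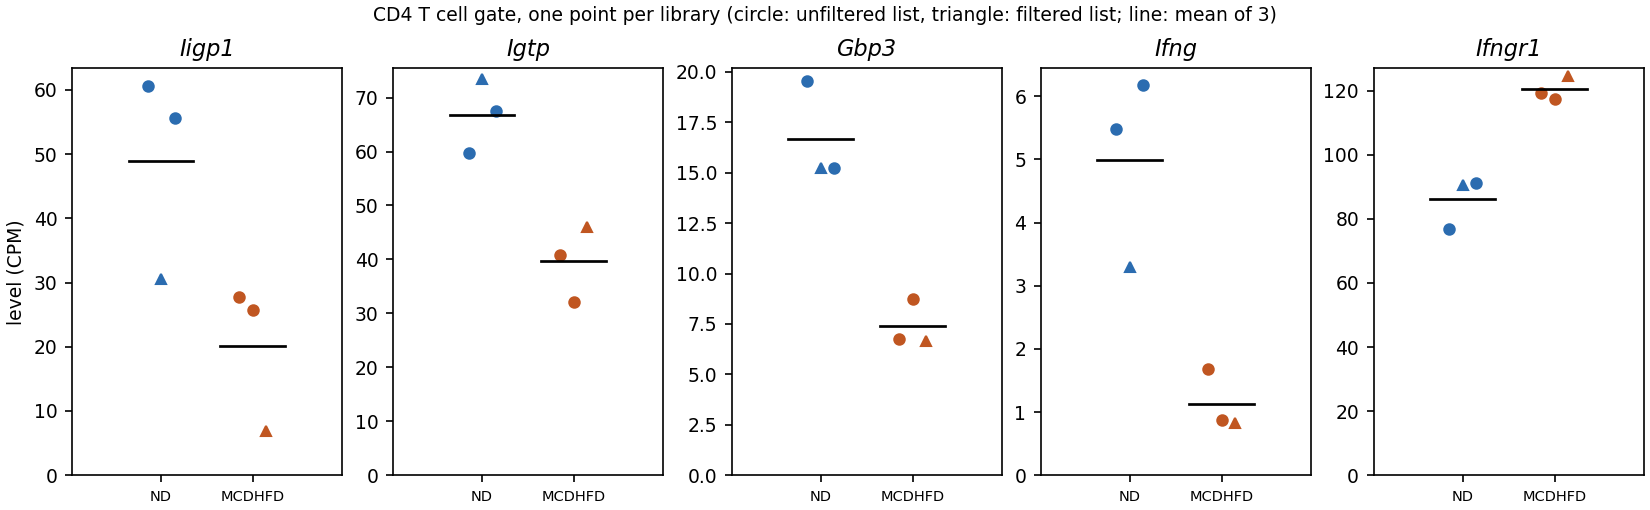
Levels in CPM (vertical axes, linear, each from 0) of 3 GTPases and of Ifng and Ifngr1 in the CD4 T cell gate, with 1 point per library (triangles for filtered lists) and lines for means of 3. The MCDHFD libraries lie below the ND libraries in the panels of Iigp1, Igtp, Gbp3 and Ifng and above them in that of Ifngr1.

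Within the CD4 gate, regulatory T cells (cells with a Foxp3 UMI, again split after the data were seen) held the higher levels, a difference given as values only. In ND their summed level was 469, 510 and 910 CPM, against 343, 395 and 334 CPM in Foxp3-negative cells. In MCDHFD it was 369, 367 and 298 CPM against 287, 258 and 263 CPM, so Foxp3-positive cells were higher in 6 of 6 libraries. In both subsets the summed level of every ND library was higher than that of every MCDHFD library. Foxp3-positive cells were 13.6% to 15.5% of the cells in ND and 8.54% to 11.5% in MCDHFD. Of the tested members, Iigp1 (by 1.69, SE 0.35) and Igtp (by 1.24, SE 0.31) fell in Foxp3-positive cells, 2 of 7 against 0.612% of all genes. In Foxp3-negative cells Iigp1 (by 1.05, SE 0.24), Irgm2 (by 0.68, SE 0.17) and Igtp (by 0.63, SE 0.15) fell, 3 of 10 against 2.61%. Iigp1 itself overlapped between diets in both subsets. It was at 93.8, 55.5 and 205 CPM in ND and 40.6, 57.1 and 5.96 CPM in MCDHFD in Foxp3-positive cells. In Foxp3-negative cells it was at 52.6, 31.3 and 41.4 CPM in ND and 34.9, 18.1 and 7.36 CPM in MCDHFD. No difference between the 2 subsets passed (lowest adjusted p = 0.510, Tgtp1, edgeR interaction, 1 of 10 at an unadjusted p under 0.05, and 0.0703% of all genes called). With ND replicates 1 to 3 and then MCDHFD replicates 1 to 3 left out in turn, 1, 2, 0, 0, 1 and 2 members passed in Foxp3-positive cells, and 0, 2, 1, 2, 0 and 2 in Foxp3-negative cells. With diet alone none passed in either subset (lowest edgeR adjusted p = 0.740 and 0.939).

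In B cells the levels were low, and the members' median change was smaller than in monocytes and macrophages, though not smaller than in CD4 T cells. The summed level was 127, 203 and 148 CPM in ND and 116, 115 and 117 CPM in MCDHFD, with no overlap, though no library lay above the range of free RNA. Of the 10 members 3 fell and none rose, against 2.68% of all 13798 genes lower, with a median of -0.53 against a value near 0 over all genes, and 5 did not overlap between diets, against 5.63% of all genes. Ifi47 was at 19.7, 52.7 and 21.7 CPM in ND and 13.0, 12.7 and 21.6 CPM in MCDHFD, and fell by 0.94 (SE 0.11, adjusted p = 0.0133). The groups overlap here, and the high value in each diet is the library with a filtered list. Irgm1 was at 27.4, 43.0 and 35.8 CPM in ND and 25.6, 23.9 and 25.5 CPM in MCDHFD, and fell by 0.53 (SE 0.11, adjusted p = 0.0497). Gbp6 was at 4.08, 7.61 and 4.14 CPM in ND and 1.73, 2.61 and 2.21 CPM in MCDHFD, and fell by 1.22 (SE 0.26, adjusted p = 0.0484). Gbp7 was the only member with a positive change, of 0.08 (SE 0.08, adjusted p = 0.594). With diet alone edgeR called none of the 10 and 0% of all genes lower (4 of the 10 at an unadjusted p under 0.05, against 6.13% of all genes, lowest adjusted p = 0.437). Without ND replicates 1 to 3 in turn 0, 3 and 0 members passed, and without MCDHFD replicates 1 to 3, 1, 1 and 3.

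CD8 T cells, the cells named in the series' title, had high levels of the members in both diets. Their summed level was 276, 394 and 342 CPM in ND and 288, 276 and 252 CPM in MCDHFD, and the diets overlap. In edgeR 0 of 10 members passed, against 0.315% of all 11102 genes lower, with 7 at an unadjusted p under 0.05 against 13.6% of all genes. DESeq2 with list form called 1, against 1.08% of all genes lower. That was Iigp1, at 31.6, 17.3 and 33.3 CPM in ND and 20.6, 22.8 and 5.85 CPM in MCDHFD (log2 change -0.87, SE 0.16, edgeR adjusted p = 0.0656, DESeq2 adjusted p = 0.0121). Of the 10, 9 were negative, with a median of -0.50 against a value near 0 over all genes, and Irgm2 and Gbp3 did not overlap between diets, against 2.54% of all genes. The exception was Gbp2, at 27.1, 25.1 and 27.1 CPM in ND and 36.2, 36.5 and 25.9 CPM in MCDHFD (log2 change 0.23, SE 0.11, adjusted p = 0.415). With diet alone none of the 10 passed and no gene was called lower. Without ND replicate 2 or without MCDHFD replicate 3, 1 member passed, and with any other library left out, none.

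In NK cells the diets overlapped in summed level. The summed level was 180, 238 and 299 CPM in ND and 247, 214 and 309 CPM in MCDHFD, and none of the 8 tested members passed in edgeR (1 at an unadjusted p under 0.05), against 1.83% of 8727 genes lower and 20.9% at an unadjusted p under 0.05. DESeq2 gave no adjusted p for any of the 8. Gbp7 was at 66.4, 46.7 and 82.0 CPM in ND and 96.6, 81.2 and 65.0 CPM in MCDHFD (log2 change 0.21, SE 0.18, adjusted p = 0.545). Irgm2 was higher in every MCDHFD library (28.7, 27.3 and 37.9 CPM) than in any ND library (11.2, 22.3 and 22.9 CPM), without passing (log2 change 0.67, SE 0.30, adjusted p = 0.228), where 8.89% of all genes did not overlap in this direction. MCDHFD replicate 3 held 37 NK cells.

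In the remaining gates no member passed in edgeR or DESeq2. In neutrophils 7 members were tested, none at an unadjusted p under 0.05 against 26.6% of 9271 genes, with a median change of 0.08 while 4.36% of genes were called lower. In the dendritic gate 8 were tested, none at an unadjusted p under 0.05 against 13.4% of 9673 genes, with a median of 0.06 and 0.724% of genes called lower. In dendritic-gate cells that passed no other gate the summed level was 110, 138 and 196 CPM in ND and 145, 171 and 186 CPM in MCDHFD. In erythroid cells, 25 to 67 per library, 4 members were tested, all at an unadjusted p under 0.05 against 6.64% of 9189 genes, and all negative (median -0.89, lowest adjusted p = 0.195), with 0.0218% of genes called lower.

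Whether the diet change differed between cell types was tested with the library as a block. No member passed in any of 5 pairs of gates. For monocytes and macrophages against B cells the difference of log2 changes was -0.89 for Gbp7 (SE 0.16, adjusted p = 0.134) and -2.40 for Iigp1 (SE 0.45, adjusted p = 0.147), with 4 of 10 at an unadjusted p under 0.05 and 0.125% of 13566 genes called. For CD4 T against B cells the lowest was Gbp3 (-0.85, SE 0.19, adjusted p = 0.113, the lowest of the 5 pairs, 3 of 10 at an unadjusted p under 0.05, 0.491% of genes called). For CD8 T against B cells it was Ifi47 (0.65, adjusted p = 0.174, 3 of 10, 0.228%), for CD8 against CD4 T cells Iigp1 (0.46, adjusted p = 0.321, 3 of 10, 0.274%) and for NK against B cells Ifi47 (0.65, adjusted p = 0.489, 2 of 10, 0.268%). Among cells that passed exactly 1 gate, 2 members passed for monocytes and macrophages against B cells, 2 for CD8 T against B cells and 1 for CD4 T against B cells, where 24, 106 and 148 genes were called in all. In the main comparison a gate with calls is therefore not shown to differ from a gate without.

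The genes around the members in the pathway were read from lists. Of interferons and receptors, Ifng itself, the gene of interferon gamma, was at 39.2, 22.3 and 26.7 CPM in ND NK cells and 28.0, 32.5 and 16.3 CPM in MCDHFD NK cells (log2 change -0.25, SE 0.25, adjusted p = 0.619). In CD4 T cells it was at 5.48, 3.30 and 6.18 CPM in ND and 1.68, 0.874 and 0.833 CPM in MCDHFD, from 16, 8 and 17 against 8, 4 and 3 UMIs. There it fell by 2.12 (SE 0.44, adjusted p = 0.0483), and the groups did not overlap. Ifngr1, a chain of its receptor, rose in the same cells by 0.48 (SE 0.10, adjusted p = 0.0456), from 76.8, 90.7 and 91.2 CPM in ND to 119, 118 and 125 CPM in MCDHFD. Of the 6 ligand and receptor genes tested in CD4 T cells these were the 2 that passed, and none passed in the other 4 gates with results described above. Over all 10494 genes tested in CD4 T cells, 129 fell and 57 rose. With diet alone neither passed (edgeR adjusted p = 0.586 and 0.968). Without ND replicate 2 or without MCDHFD replicate 3, 1 of the list passed in CD4 T cells, and with any other library left out, none.

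Of the signalling genes few passed, and with diet alone none of them did in any gate. Stat2, which acts in the type I interferon signal, fell by 0.81 (SE 0.14, adjusted p = 0.0490) in monocytes and macrophages, and Irf9, its DNA-binding partner, by 0.60 (SE 0.11, adjusted p = 0.0335) in CD4 T cells and 0.63 (SE 0.09, adjusted p = 0.0184) in B cells. Socs3, a feedback inhibitor best known for cytokines that signal through STAT3, rose in CD8 T cells by 1.18 (SE 0.12, adjusted p = 0.0049), in CD4 T cells by 1.26 (SE 0.19, adjusted p = 0.0182) and in B cells by 1.48 (SE 0.21, adjusted p = 0.0186), though its diets overlap in all 3. Of the 17 genes on this list, 1 fell and 1 rose in B cells, 1 rose in CD8 T cells and none passed in NK cells. Over all genes tested, 370 fell and 232 rose in B cells (of 13798), and 22 rose in CD8 T cells (of 11102). In turn without ND replicates 1 to 3 and then MCDHFD replicates 1 to 3, the calls in either direction numbered 0, 5, 0, 1, 0 and 5 in B cells and 1 each time in CD8 T cells. In monocytes and macrophages no gene of the list passed with any library left out.

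Type I interferon response genes were read in the same way. In monocytes and macrophages 11 of 28 fell, against 0.645% of all genes lower. The median log2 change of the list was -1.17 there, and that of the members -1.16. Isg15, a ubiquitin-like modifier, was at 118, 93.3 and 129 CPM in ND and 31.3, 27.4 and 23.8 CPM in MCDHFD and fell by 2.07 (SE 0.12, adjusted p = 0.00213), and Ifit3, which binds viral RNA complexes, fell by 2.29 (SE 0.19, adjusted p = 0.00688). In B cells 10 of 28 fell (median -0.81), in CD4 T cells 6 of 26 (median -0.81), in CD8 T cells 3 of 27 (median -0.60) and in NK cells 3 of 17 (median -0.22), and none rose in any of these. Over all genes tested, 2.68%, 1.23%, 0.315% and 1.83% fell in the same order, and the members' medians were -0.53, -0.45, -0.50 and -0.19. In neutrophils 0 of 26 fell (median -0.61, members 0.08), against 4.36% of all genes. In the dendritic gate 2 of 25 fell (median -0.54, members 0.06), against 0.724%. In erythroid cells 0 of 18 fell (median -0.81, members -0.89), against 0.0218%. Ifi27l2a fell by 1.75 (SE 0.14, adjusted p = 0.00170) in CD4 T cells and by 1.75 (SE 0.22, adjusted p = 0.0155) in B cells. With diet alone none of this list passed in any gate. The count in monocytes and macrophages was 3, 3 and 7 without ND replicates 1 to 3 and 2, 5 and 7 without MCDHFD replicates 1 to 3. In the same order it was 0, 15, 3, 4, 4 and 15 in B cells, 5, 5, 3, 2, 2 and 5 in CD4 T cells, 6, 2, 0, 2, 1 and 2 in CD8 T cells and 2, 3, 2, 0, 1 and 3 in NK cells.

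Of genes for antigen presentation induced by interferon gamma, 5 of 17 fell in B cells, 3 of 17 in CD4 T cells, 2 of 18 in monocytes and macrophages, 2 of 16 in NK cells and 0 of 16 in CD8 T cells. Over all genes tested, 2.68%, 1.23%, 0.645%, 1.83% and 0.315% fell in the same order. H2-Q7, an MHC class I gene, fell in monocytes and macrophages by 0.76 (SE 0.12), in CD4 T cells by 0.70 (SE 0.11), in B cells by 0.88 (SE 0.13) and in NK cells by 0.69 (SE 0.15), with adjusted p of 0.0192 to 0.0362. Without ND replicates 1 to 3 and then MCDHFD replicates 1 to 3 in turn, the list's calls numbered 0, 9, 1, 0, 0 and 9 in B cells, 0, 10, 3, 0, 0 and 5 in CD4 T cells, 0, 9, 1, 0, 0 and 9 in NK cells and 0, 0, 0, 0, 1 and 0 in monocytes and macrophages. Among 16 further interferon-inducible GTPase genes, 13 were tested in monocytes and macrophages and all 13 were negative without passing (median -0.34). Gbp5, which drives inflammasome assembly, was the nearest (-1.05, SE 0.26, adjusted p = 0.109). In B cells 1 of 13 fell, Gm4070 by 0.74 (SE 0.10, adjusted p = 0.0176). No autophagy factor that places these proteins passed in these 5 gates (0 of 13 or 14 tested). Of inflammasome genes Pycard, the adaptor ASC, fell in B cells by 0.61 (SE 0.13, adjusted p = 0.0493) and in NK cells by 0.59 (SE 0.14, adjusted p = 0.0416), and Nlrc4 rose in B cells by 0.45 (SE 0.09, adjusted p = 0.0479). This list had 9 genes tested in B cells, where 232 of all 13798 genes rose, and 6 in NK cells. With diet alone no gene of the lists in this paragraph passed in any gate.

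The genes whose pattern was most like the summed members were looked for among 6642 genes with a mean of at least 20 CPM. Likeness was Pearson's r over 48 values, 8 gates in each of 6 libraries, after the mean of each gate was subtracted on the log2(CPM + 1) scale. These values share libraries and depth, so r is a description. Rtp4 came first (r = 0.78), and Rnf213 (0.77), Slfn8 (0.74), Zbp1 (0.70), Phf11b (0.68), Isg15 (0.67) and Irf7 (0.66) were also among the closest. Between members, r over the same 48 values ran from -0.22 (Ifi47 with Gbp7) through a median of 0.43 to 0.77 (Irgm1 with Ifi47). Rtp4 fell in monocytes and macrophages (by 1.37, SE 0.20, adjusted p = 0.0303), CD4 T cells (by 1.25, SE 0.24, adjusted p = 0.0367), CD8 T cells (by 1.04, SE 0.17, adjusted p = 0.0391) and B cells (by 1.13, SE 0.16, adjusted p = 0.0176). With diet alone it passed in none of these gates, with edgeR adjusted p of 0.174, 0.586, 0.999978 and 0.430 in the same order. The other genes named varied. Rnf213 passed in no gate (lowest edgeR adjusted p = 0.130, monocytes and macrophages), and Slfn8 fell in B cells alone. Zbp1 fell in B and CD4 T cells, and Irf7 in B cells and monocytes and macrophages. Phf11b fell in B cells, CD4 T cells and monocytes and macrophages, and Isg15 in these, NK cells and the dendritic gate. With diet alone none of them passed.

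Cells with several GTPase molecules made up a smaller share in each MCDHFD library than in each ND library among monocytes and macrophages and CD4 T cells, and in some other gates. Each cell was thinned to 1000 UMIs to compare shares at equal depth, and no cell was shallower. The share of monocytes and macrophages with at least 1 member UMI was then 21.4%, 27.1% and 27.8% in ND and 16.8%, 13.3% and 17.7% in MCDHFD (65.0%, 67.2% and 70.6% against 57.0%, 57.1% and 49.8% before thinning). With at least 3 it was 2.02%, 2.29% and 3.16% against 0.258%, 0.472% and 0.655%. In CD4 T cells the share with at least 3 was 2.87%, 2.92% and 4.27% in ND and 1.40%, 0.380% and 0.756% in MCDHFD. Every ND library was also higher for at least 1 member UMI in CD4 T cells, CD8 T cells and neutrophils, and for at least 3 in B cells and the dendritic gate. In all these comparisons p was 0.1 in the exact permutation test, the smallest that 3 against 3 libraries allow, so none can pass. The shares with at least 3 rest on few cells: gates held 92 to 238 cells per library (dendritic), 262 to 847 (monocytes and macrophages) and 328 to 571 (CD4 T cells). In the dendritic gate they were 0.658%, 1.83% and 0.781% of 152, 109 and 128 cells in ND. In MCDHFD they were 0.625%, 0% and 0% of 160, 238 and 92 cells, so the diets nearly touch there. Erythroid cells, which held the lowest summed level, had 4.48% to 16.2% of cells with at least 1 member UMI after the same thinning (median depth 18088 to 63418 UMIs before it, against 4490 to 8990 in monocytes and macrophages). In B cells, UMIs of the other 9 members were compared between cells with and without a UMI of a given member, for the 7 members found in at least 20 cells of a library (libraries under 20 are left out). Cells with the UMI held more in 6 of 6 libraries for Igtp (2.29 to 4.12 times as many) and Ifi47 (2.16 to 4.06 times), and in 5 of 5 for Irgm2 (1.15 to 5.87 times). For Gbp7 and Irgm1 they held more in 5 of 6, for Gbp3 in 4 of 6 and for Gbp2 in 3 of 5, with ratios down to 0.385, 0.914, 0.733 and 0.440. The 9.21% of B cells that passed another gate are included, and their part was not tested. It was not particular to B cells: for Igtp it held in 6 of 6 libraries in CD8 and 5 of 5 in CD4 T cells. For Ifi47 it held in 5 of 5 in CD8 T cells, 5 of 5 in monocytes and macrophages and 3 of 4 in CD4 T cells.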

How the data were processed

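The libraries are Chromium 3′ single-cell libraries of spleen cells, 3 per diet. The authors deposited raw UMI counts for each gene and barcode, and every value was checked to be a whole number. The headers name Cell Ranger 9.0.1 for 4 libraries, whose barcode lists are unfiltered, and 7.2.0 for ND replicate 2 and MCDHFD replicate 3, whose lists are filtered. Per the submitters' processing notes, Cell Ranger 9.1.0, Seurat 4.3.0 and mm10 were used. Cell barcodes, gene identifiers and symbols are deposited as text. The gene members, the lists of pathway genes and the gates were chosen with earlier results of these data known.

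Cells were kept at 1000 or more UMIs and at most 10% mitochondrial UMIs, which left 21048308 to 50193622 UMIs per library. No doublet caller was run, and cells in more than 1 gate were left out in an alternative. UMIs were summed per gate and library and tested with edgeR 4.0.16 (quasi-likelihood, TMM, filterByExpr, Benjamini-Hochberg over all genes that passed) with diet and list form as terms. The diet effect is thus estimated within each form, from 4 unfiltered and 2 filtered libraries. DESeq2 1.42.0 was an alternative. Differences between gates were tested with the library as a block. CPM scales a gene's count to the total UMIs of the gate's cells. Interval limits for counts of 0 use 3 UMIs and cover counting error only. The pipeline was checked on simulated data. Python 3.11.15, R 4.3.3 and SciPy 1.17.1 were used.

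All 10 members are named, along with up to 4 genes per list and gate with the smallest p, and genes from the 8 most like the summed members. Results for 1 gene that these rules name are not reported here. Marker subsets of the Csf1r and CD4 gates, DESeq2 with diet alone and the 4 unfiltered libraries alone were added after the data were seen. Gbp11 and Gm12250 among further IRG and GBP genes, and Mx1 and Mx2 in the type I interferon list, matched no symbol. Not every symbol has a promoter window in the table used here: Iigp1 and Gbp6 have none.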

Additional observations from a re-analysis of the deposited data

Results flagged for a closer look

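Irgm2, a regulatory IRG, had log2 changes of opposite sign with diet in NK cells and in T cells, and the libraries of the 2 diets did not overlap in these gates. Its log2 change of MCDHFD over ND was 0.67 in NK cells (SE 0.30, edgeR adjusted p = 0.228), -0.54 in CD8 T cells (SE 0.16, edgeR adjusted p = 0.200) and -0.57 in CD4 T cells (SE 0.15, edgeR adjusted p = 0.0829). None of the 3 passed on its own. Among cells that passed exactly 1 gate the diets overlapped in NK cells, at 14.7, 29.1 and 21.1 CPM in ND and 33.0, 27.6 and 47.6 CPM in MCDHFD, and in CD8 T cells, but not in CD4 T cells. The difference between NK and T cells was not tested. For NK against B cells, the pair that was tested, the Irgm2 difference was 0.76 (SE 0.32, edgeR adjusted p = 0.541). NK cells numbered 37 to 253 per library, and 136 Irgm2 UMIs lie behind the NK value.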

How the results depend on the processing

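The calls depended on the term for list form and on single libraries. With diet alone, edgeR called 0 members in B cells, CD4 T cells and monocytes and macrophages (from 3, 3 and 4), and DESeq2 with diet alone called 0 in B cells and 0 in CD4 T cells. DESeq2 with list form called 1 in CD8 T cells and 7 in monocytes and macrophages. Without a filter on low counts there were 5 calls in B cells, 1 in NK cells, 8 in monocytes and macrophages and 2 in erythroid cells. With at most 5% mitochondrial UMIs there were 1 in B cells and 2 in monocytes and macrophages. With cells that pass exactly 1 gate there was 1 in CD8 T cells, and in the 4 libraries with unfiltered lists 1 in CD8 T cells and 0 in monocytes and macrophages. The C1q or Vcam1 cells gave 2. Leaving out 1 library in turn gave 0 to 3 calls in B cells, 0 to 1 in CD8 T cells, 0 to 3 in CD4 T cells and 0 to 2 in monocytes and macrophages. The number of neighbouring gates ordered alike in every library, 11, became 12 to 17 in the same way. For differences of the diet effect, none passed in the main fit. Without the filter 2 passed for CD8 T against B cells, 2 for CD4 T against B cells and 3 for monocytes and macrophages against B cells. With cells of exactly 1 gate the counts were 2, 1 and 2, and with unfiltered lists alone 2 for CD8 T against B cells. The cause of these changes was not tested. No called value changed direction under any of these alternatives.

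The replicate numbers of the titles do not pair the libraries: same-numbered ND and MCDHFD libraries correlated at 0.68, -0.72 and -0.77 in their deviations from the group means over 12631 genes. With the replicate block in place of list form, 0 members were called in B cells, 0 in CD4 T cells and 0 in monocytes and macrophages, with all the directions of the called genes as before. Depth limits Iigp1, Tgtp1 and Gbp6 most: 349, 66 and 103 UMIs lie behind them in monocytes and macrophages.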
